A study of Homo sapiens with 3 samples.

Results

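The E. coli 83972 culture was set directly against the DRB culture, as the log2 value of a probe set on the first array minus its value on the second. Both arrays hold RNA of A498, a line of epithelial cells that was derived from a carcinoma of the human kidney and lacks functional VHL. They are 2 of the 3 arrays of the series, and the control array was not used. The 2 arrays gave values for 18239 genes through probe sets with 1 gene symbol, of which 11562 were kept because the higher of their 2 values reached 4.89, the median of all values.

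Confluent A498 cells stood for 4 h in serum-free medium with gentamicin, either with added E. coli 83972 bacteria grown on agar or with 60 µM DRB. The labels state DMSO, at 0.08%, for the control culture alone and name none for these cultures. They disagree on the concentration of the bacteria, so no dose is given. Both labels give the experiment as number 2. There was 1 array a side, so there is no replicate check: every value below compares 2 arrays, no test was run, and having a single array on each side is what limits precision.

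E. coli 83972 is a strain that lives in the urinary tract without causing symptoms. DRB, an analogue of a nucleoside, blocks the kinase CDK9 within the elongation factor P-TEFb. Without that kinase RNA polymerase II stays paused near the start of most genes, so synthesis of most messenger RNAs stops, and the transcripts with the fastest decay are the first to be lost. Epithelial cells of the kidney recognise bacteria through pattern receptors that lead to NF-κB and to chemokine genes. The comparison asks where transcript levels with the bacterium were close to those under a general block of polymerase II, and where they were not.

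A gene near 0 had a like level on both arrays, and a gene far from 0 did not. No difference given here says which culture had departed from untreated cells. The values had been normalized so that the arrays have nearly the same distribution, which reduces or removes a change shared by most transcripts. In bulk RNA, fewer cells and less RNA per cell cannot be told apart.

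Small differences lay on both sides of 0, and differences of 2-fold or more lay almost all on one side. Pearson's r was 0.968 across all probe sets and 0.921 across the kept genes, which are not independent replicates. The median difference was -0.08, the 5th percentile -0.61 and the 95th percentile 1.70. At least 2-fold, that is 1 on the log2 scale, higher on the E. coli 83972 array were 1405 genes, or 12.2% of those kept. At least 2-fold higher on the DRB array were 45 genes, or 0.389%. The first direction thus held 96.9% of the 1450 genes that differed 2-fold (95% Wilson interval 95.9% to 97.7%, for counting only, since genes are not independent). At 4-fold the counts were 389 genes (3.36%) and 3 genes (0.0259%). Within 0.25 of each other on the log2 scale, the limit used here for a like level, were 4789 genes, or 41.4%. Below 0 were 6676 genes, or 57.7%. The scatter of levels on the 2 arrays shows the tail on the side of E. coli 83972 and the thin edge on the side of DRB.

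**Figure D1:**
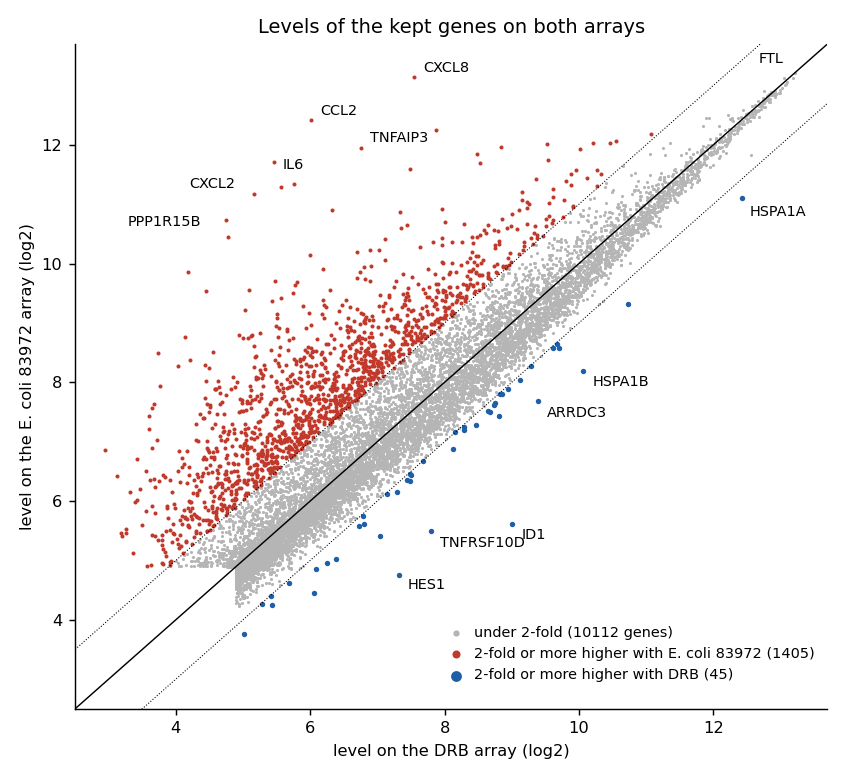
Each point is 1 of the 11562 kept genes, with its log2 level on the DRB array on the x axis and on the E. coli 83972 array on the y axis; the solid line marks equal levels and the dotted lines 2-fold. The 1405 genes above the upper dotted line are red, the 45 below the lower one are blue, and CXCL8 and ID1 lie far out on either side.

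The excess on one side did not come from dim genes alone. Of the 1405 genes, 271 had a value on the DRB array under the filter level, and 8 of the 45 had such a value with E. coli 83972. These genes passed the filter through the array on which they were high. With the genes cut into 5 equal ranges of mean level, the share higher on the E. coli 83972 array was 8.0%, 14.4%, 18.8%, 13.9% and 5.62% from the lowest to the highest range. Probe sets of the same gene mostly agreed in direction, and less so in size. Of 824 genes of the 1405 that had at least 2 kept probe sets, 720 were higher on the E. coli 83972 array by every probe set. Only 379 were at least 2-fold higher by every one. Of 25 such genes among the 45, 23 were higher on the DRB array by every probe set, and 8 were at least 2-fold higher by every one.

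The error that can be measured here is the disagreement between probe sets of a gene. From the 2 brightest kept probe sets of each gene that had them, the standard deviation of a log2 difference was 0.16 by a robust estimate and 0.35 by a plain one. The plain estimate was 0.44 in the lowest of 3 ranges of level and 0.19 in the highest. Differences between cultures, extracts and hybridizations are not part of it.

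The array's spike-in controls bear on the zero point. The 24 probe sets of the poly-A controls, foreign transcripts that the kit adds to the RNA before labelling, were all lower on the E. coli 83972 array, by a median of -0.52 (range -0.96 to -0.26). The 9 probe sets of the hybridization controls, which are added after labelling, had a median of 0.11. Of these, 7 detect E. coli genes and had a median of 0.11, and 2 detect a phage gene and stood at 0.26. Where the poly-A controls are set to 0, the median of all kept genes is 0.44 in place of -0.08. The counts are then 2506 genes higher on the E. coli 83972 array and 7 higher on the DRB array. Where the text prints a list's median under the main processing and it is negative, its value on that scale is given too. The part of the amount of RNA in this shift was not tested. The gap between the 3′ and 5′ probe sets was 2.00 on the E. coli 83972 array and 1.83 on the DRB array for ACTB, and 0.16 and 0.09 for GAPDH.

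**Figure D2:**
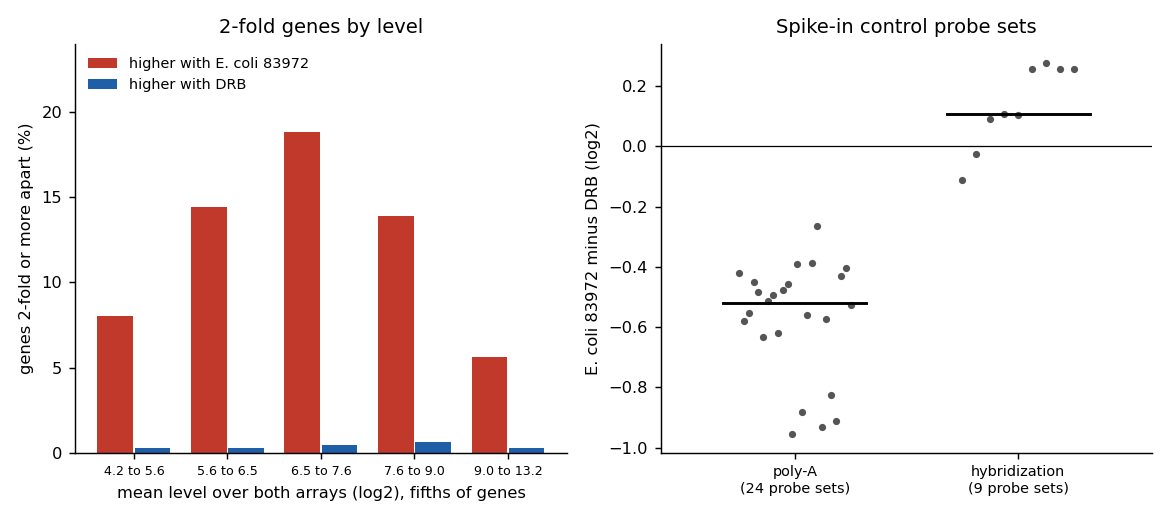
The left panel gives the percentage of genes at least 2-fold apart in each of 5 equal-sized groups of the kept genes by mean log2 level, red for higher with E. coli 83972 and blue for higher with DRB. The right panel gives the log2 difference, E. coli 83972 minus DRB, of each spike-in probe set with the group's median as a bar; all 24 poly-A probe sets lie below 0 and the hybridization probe sets have a median of 0.11.

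Markers of the labelled cell type were present on both arrays. Of 16 kidney epithelial and renal carcinoma markers with a probe set, 11 reached the filter level with E. coli 83972 and 13 with DRB. VIM, an intermediate filament of carcinoma and mesenchymal cells, stood at 12.76 and 12.79, and the epithelial keratin KRT18 at 11.55 and 11.67. Of the same list, EPCAM (3.32 and 3.39), AQP1 (3.82 and 3.91) and CUBN (4.81 and 4.79) were under the filter level on both arrays. PAX8, a transcription factor of the kidney lineage, was at 7.23 and 6.10, with 4 probe sets from -0.22 to 1.13. Markers of other cell types were mostly under the filter level. Of 11 leukocyte markers 3 and 5 reached it, of 10 endothelial markers 3 and 3, and of 10 fibroblast markers 3 and 3. The log2 of the summed marker levels was 13.71 and 13.84 for kidney, 9.54 and 9.87 for leukocyte, 7.95 and 8.01 for endothelial and 8.80 and 9.50 for fibroblast markers, on the E. coli 83972 and the DRB array. ACTA2, an actin of smooth muscle and myofibroblasts, made most of that last gap with 7.50 and 8.67. The largest part of the kidney sum was VIM, which is not particular to kidney cells.

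Of the 15 genes named for the largest differences on the side of E. coli 83972, 6 encode secreted mediators of inflammation. CCL2, which attracts monocytes, stood at 12.41 on the E. coli 83972 array and 6.02 on the DRB array, a difference of 6.40 or 84.4-fold. IL6, a cytokine of the acute phase, stood at 11.72 and 5.45, a difference of 6.27; a second, dimmer IL6 probe set differed by 0.91. CXCL2, an attractant of neutrophils, stood at 11.18 and 5.17. PTX3, a soluble pattern-recognition pentraxin, was at 11.28 and 5.57. CCL20, the ligand of the receptor CCR6, was at 10.44 and 4.78. CXCL8, the main human neutrophil chemokine, was at 13.14 and 7.55, and its 3 probe sets differed by 5.59 to 6.13. On the DRB array CCL20 lay under the filter level of 4.89 and CXCL8 was well above it.

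The other 9 encode proteins of other kinds. PPP1R15B, the subunit that brings protein phosphatase 1 to the translation factor eIF2α, stood at 10.73 and 4.74, and its 3 probe sets differed by 1.88 to 5.99. NEDD9, a scaffold protein of focal adhesions, stood at 9.85 and 4.17, and its 3 probe sets differed by 1.84 to 5.68. PNRC1, a nuclear coactivator, was at 11.33 and 5.76. TNFAIP3, which encodes A20, the ubiquitin-editing inhibitor of NF-κB, was at 11.95 and 6.76. The transcription factors CEBPD (9.54 and 4.45) and FOXO1 (8.50 and 3.73) had values under the filter level on the DRB array, as had PPP1R15B and NEDD9. The 4 probe sets of CEBPD ran from 0.49 to 5.09. SOCS2, a feedback inhibitor of cytokine receptors, was at 8.76 and 4.14, also under the filter level on the DRB array. SLC38A2, an amino acid transporter, was at 10.90 and 6.32, and a second, dimmer probe set of it differed by 0.55. TIFA, an adaptor that joins the sensing of bacterial sugars to TRAF6, was at 9.56 and 5.09.

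The genes furthest apart on the side of DRB differed by less. ID1, a helix-loop-helix protein that blocks differentiation factors, stood at 5.61 on the E. coli 83972 array and 9.01 on the DRB array, a difference of -3.40 or 10.6-fold, and its 3 probe sets ran from -3.40 to -2.61. HES1, the repressor induced by Notch, was at 4.76 and 7.31, with probe sets from -2.56 to -0.13. Its value on the E. coli 83972 array lay under the filter level. TNFRSF10D, a decoy receptor for the death ligand TRAIL, was at 5.50 and 7.80 on its 1 probe set. The heat shock genes HSPA1B (8.18 and 10.06) and HSPA1A (11.10 and 12.43) encode nearly the same protein, so their probe sets may share signal. ARRDC3, an α-arrestin of receptor trafficking, was at 7.69 and 9.39, and its 3 probe sets lay between -1.71 and -1.66.

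The rest of the 15 on the side of DRB lay between -1.63 and -1.20. GCSH, the H protein of the glycine cleavage system, was at 5.40 and 7.04. RAB4A, a GTPase of recycling endosomes, was at 7.44 and 8.82. DNER, a neuronal Notch ligand, was at 5.02 and 6.39, MATN2, a matrix protein, at 4.95 and 6.25, and ZMAT3, an RNA-binding p53 target, at 6.88 and 8.12. CARD16, an inhibitor of caspase 1, was at 4.86 and 6.08. C12orf76 (4.46 and 6.05), NT5DC2 (3.76 and 5.02) and SMIM11 (7.27 and 8.47) complete the group. With the poly-A controls set to 0, CARD16, DNER, HSPA1A, MATN2, NT5DC2, RAB4A, SMIM11 and ZMAT3 were under 2-fold, while ID1, HES1, TNFRSF10D, HSPA1B, ARRDC3, GCSH and C12orf76 were still at least 2-fold higher with DRB.

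**Figure D3:**
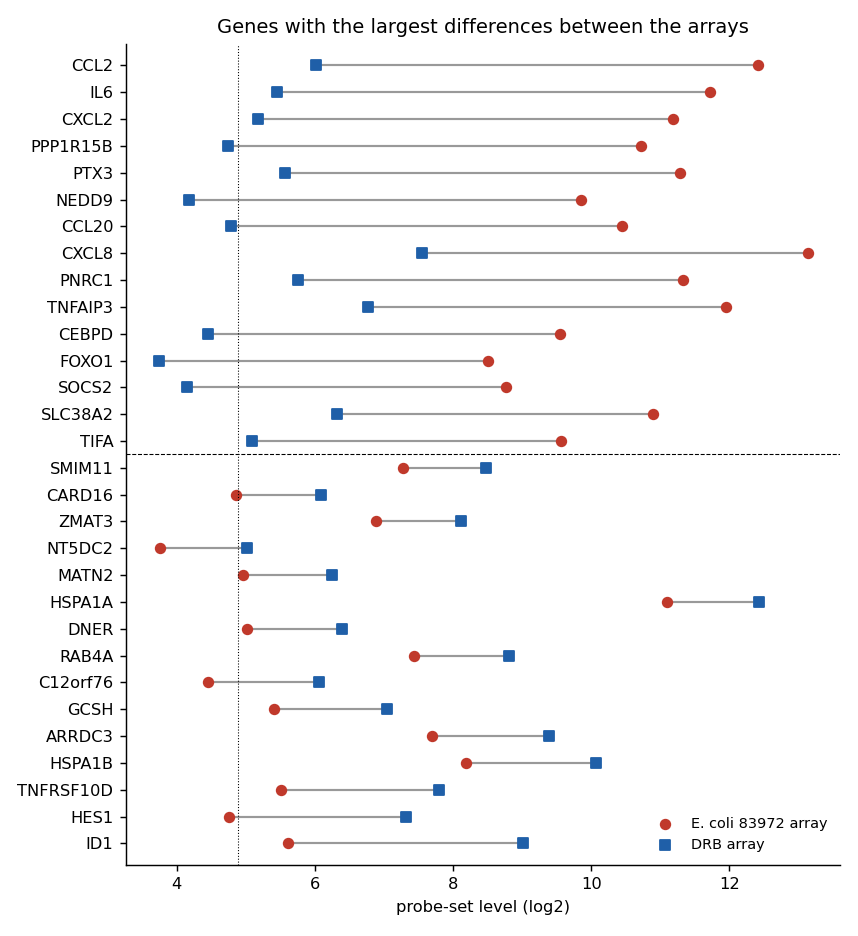
Log2 levels of the 15 genes with the largest differences in each direction, among genes whose kept probe sets all differ one way, with a red circle for the E. coli 83972 array and a blue square for the DRB array. The dashed line parts the 2 directions and the dotted line is the filter level of 4.89; CCL2 spans 6.40 at the top and ID1 spans 3.40 at the bottom.

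Promoter sequences are shown for 4 genes with a large difference on the side of E. coli 83972 that hold a match to the κB consensus, the site bound by NF-κB, and for ID1 and HSPA1B from the other side. Each is the 120 bases before the start of the gene in the RefSeq annotation of assembly GRCh38.p14, 5′ to 3′ on the gene's strand. Capitals mark the κB match in CXCL2, CCL20, IL6 and TNFAIP3, the heat shock element core GAANNTTC in HSPA1B and the TATAAA box in ID1, on either strand and with overlapping matches joined. Matches of the other motifs are left in lower case: the ID1 window also holds GAANNTTC, and the HSPA1B and CCL20 windows also hold TATAAA.
CXCL2: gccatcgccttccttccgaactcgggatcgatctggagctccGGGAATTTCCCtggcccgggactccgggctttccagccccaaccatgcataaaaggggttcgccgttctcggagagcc
CCL20: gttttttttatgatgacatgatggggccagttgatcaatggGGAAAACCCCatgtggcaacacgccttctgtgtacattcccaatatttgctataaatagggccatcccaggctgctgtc
IL6: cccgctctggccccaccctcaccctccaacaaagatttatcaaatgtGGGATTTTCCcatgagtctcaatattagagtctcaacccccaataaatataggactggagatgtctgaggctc
TNFAIP3: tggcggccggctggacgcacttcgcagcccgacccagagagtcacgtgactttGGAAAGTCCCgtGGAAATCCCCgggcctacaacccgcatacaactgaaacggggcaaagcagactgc
HSPA1B: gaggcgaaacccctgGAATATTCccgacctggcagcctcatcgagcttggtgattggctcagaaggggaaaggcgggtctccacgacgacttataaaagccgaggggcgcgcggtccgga
ID1: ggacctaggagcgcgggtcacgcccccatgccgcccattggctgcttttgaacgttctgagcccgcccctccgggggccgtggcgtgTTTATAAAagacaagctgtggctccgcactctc
The windows lie at chr4:74099196-74099315 (minus strand), chr2:227813722-227813841, chr7:22727080-22727199, chr6:137867139-137867258, chr6:31827618-31827737 and chr20:31605169-31605288 (all plus strand). The κB match began 78 bases before the start in CXCL2, 79 in CCL20 and 73 in IL6, and TNFAIP3 had matches that began 67 and 55 bases before it. The GAANNTTC match of HSPA1B began 105 bases before the start.

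The windows shown were chosen for holding these letters. Shares over all promoters were low, and matches of different motifs were counted apart even where they overlap. In the 250 bases before the start, on both strands, the κB consensus was found in 5.05% of 27305 genes of the promoter table and in 6.12% of the 9489 kept genes that the table holds. Among genes at least 2-fold higher on the E. coli 83972 array it was in 88 of 1184, or 7.43%. Among those at least 8-fold higher it was in 11 of 82, or 13.4%, and among the close genes in 5.92%. Of 37 genes higher on the DRB array, 5 held it, or 13.5%. Chemokines with a promoter in the table held it in 5 of 8. The sequence GAANNTTC was in 5.85% of all promoters and 4.15% of those of kept genes. It was in 5 of the 37 genes higher on the DRB array and in 8 of 25 heat shock genes. TATAAA was in 11.1% of all promoters, 5.82% of those of kept genes, 6.42% of those at least 2-fold higher on the E. coli 83972 array and 13.4% of those at least 8-fold higher. Among the 37 genes higher on the DRB array it was in 4, or 10.8%. TGANTCA, the AP-1 site, was in 4.06% of kept genes and 4.05% of those higher on the E. coli 83972 array. A match of letters is a description of the window and no measure of binding.

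Among the 47 lists examined, chemokines had the highest median difference on the deposited scale. Each list's counts stand against the shares of all kept genes given above, 12.2% higher with E. coli 83972, 0.389% higher with DRB, 41.4% within 0.25 and 57.7% below 0. Of 18 chemokine genes with a probe set, 12 were kept: 8 were at least 2-fold higher on the E. coli 83972 array, against 12.2% of all kept genes, and 1 at least 2-fold higher on the DRB array. The median difference was 1.72, against -0.08 over all kept genes. It was 0.71 with no filter on level, 1.16 where both arrays had to reach the filter level and 5.41 from plain probe sets, those whose name carries no mark for matches to several transcripts. Beside the 4 named above, CXCL3 was at 8.82 and 5.25, CXCL10, which attracts T cells, at 7.01 and 4.73, and CXCL1 at 8.16 and 7.0, with a second CXCL1 probe set that differed by 5.67. CXCL14, a chemokine of resting epithelium, was at 6.11 on the E. coli 83972 array and 7.14 on the DRB array, a difference of -1.03. These 4 genes were named after their values were seen.

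Neighbours on the chromosome often lacked the large differences of the leading genes. In the CXC cluster on chromosome 4, CXCL8 (5.59), CXCL1 (1.16), CXCL3 (3.58) and CXCL2 (6.01) alternated with CXCL6, PF4, PPBP and CXCL5, which stayed under the filter level on both arrays. Just outside the cluster RASSF6 differed by 1.01 and MTHFD2L by 1.41. On chromosome 17, CCL2 differed by 6.40, and its neighbours CCL7, CCL11 and CCL8 were under the filter level on both arrays. Around TNFAIP3 on chromosome 6, IFNGR1, which encodes a chain of the interferon γ receptor, differed by 2.44 and PERP by -0.44. Around ID1 on chromosome 20, the neighbour HM13 differed by -0.42 and BCL2L1 by 0.02. Neighbours were taken from the gene order of GRCh38.p14.

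Cytokines other than chemokines were mixed. Of 22 with a probe set 17 were kept, 6 were at least 2-fold higher on the E. coli 83972 array and none on the DRB array, and the median was 0.32. After IL6 came LIF, a cytokine of the IL6 family, at 10.55 and 8.80, IL12A at 5.41 and 3.70, and IL15, a growth factor of lymphocytes, at 7.39 and 5.84. At the other end EBI3 was at 7.39 and 7.95 and IL18 at 6.66 and 7.12, both named after their values were seen. IL1B and TNF, at 6.22 and 5.80 on the E. coli 83972 array, differed by 0.89 and 0.77, so neither reached 2-fold.

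Members of the NF-κB pathway ranged widely. Of 15 genes, all kept, 7 were at least 2-fold higher there and none on the DRB array, with a median of 0.88. The inhibitors NFKBIE (8.71 and 5.68) and NFKBIA (10.69 and 8.0), which hold NF-κB in the cytoplasm, differed by 3.03 and 2.69. The subunit REL was at 7.47 and 4.72, and the nuclear IκB protein BCL3 at 8.62 and 6.57. RELA, the constitutive subunit, differed by 0.88. The subunit NFKB2 (0.45) and the inhibitors NFKBIB (0.17) and NFKBID (0.20) were well under 2-fold. The kinases CHUK (0.25), IKBKB (-0.34) and IKBKE (-0.10) and their scaffold IKBKG (-0.09) were under 2-fold as well. The genes after BCL3 were named after their values were seen.

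The A20, TRAF and cIAP regulators of ubiquitin on the same pathway were above 0 on the deposited scale in all 14 kept genes. Of these, 9 were at least 2-fold higher on the E. coli 83972 array and none on the DRB array, with a median of 1.24. After TNFAIP3 came TNFAIP8 (8.92 and 5.54), TRAF1 (7.82 and 4.65), an adaptor of TNF receptors, and RIPK2 (10.67 and 8.30), the kinase downstream of the peptidoglycan sensors NOD1 and NOD2.

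Receptors and adaptors upstream had a lower median. Of 22 Toll-like receptor and IRAK genes with a probe set 14 were kept and 4 were at least 2-fold higher on the E. coli 83972 array, with a median of 0.20 that turned to -0.01 when no filter was used. IRAK2, a kinase of the receptor complex, was at 9.71 and 5.47, and its second probe set differed by 0.27. TLR1 was at 5.88 and 4.24, TAB2, an adaptor of the kinase TAK1, at 9.29 and 7.73, and TICAM1, the adaptor TRIF, at 7.57 and 6.22. IRAK1 differed by -0.03. LY96, the co-receptor MD-2 that binds lipopolysaccharide with TLR4, was lower on the E. coli 83972 array at 8.28 against 9.10.

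Interferon-stimulated genes lay on both sides of 0. Of 36 kept, 6 were at least 2-fold higher on the E. coli 83972 array, a share near the 12.2% of all kept genes, and none on the DRB array, and the median of -0.19 became 0.33 with the poly-A controls set to 0. IRF1, a transcription factor that NF-κB also induces, was at 9.28 and 5.89. IFIT5 (2.29), IFIT3 (1.84) and IFIT2 (1.57), which bind foreign RNA, followed. IFITM3 was at 9.92 and 10.32 and BST2, the protein tetherin, at 10.25 and 10.70.

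Adhesion and prostaglandin genes left a gap between large and small differences. Of 14 kept, 6 were higher on the E. coli 83972 array by 2.51 to 3.96 on the log2 scale, and the other 8 lay between -0.74 and 0.15. Among these ICAM3 was at 7.84 and 8.57, and PLAUR at 7.94 and 8.57 with 5 probe sets from -0.63 to 1.31. PTGER4, a receptor for prostaglandin E2, was at 7.64 and 3.68 and PTGS2, the inducible cyclooxygenase, at 6.86 and 2.95, both under the filter level on the DRB array. The leukocyte adhesion molecules ICAM1 (10.87 and 7.33) and VCAM1 (11.96 and 8.84) differed by 3.54 and 3.11. CD44, the hyaluronan receptor, was at 12.41 and 12.28 over 10 probe sets that ran from -0.07 to 0.28.

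Early response genes had the next highest median of the lists. Of 33 kept immediate early transcription factors 23 were at least 2-fold higher on the E. coli 83972 array and 1, HES1, on the DRB array, with a median of 1.45. CEBPB, a factor of the acute phase and a partner of CEBPD, was at 11.59 and 7.49. ATF3, a stress-induced repressor, was at 10.23 and 6.89, and TSC22D1 at 10.61 and 7.35. The AP-1 subunit JUN (10.43 and 7.97) and MYC (10.80 and 9.55), named after their values were seen, differed by 2.47 and 1.26. Some classical serum-response genes lacked such differences. EGR1 was at 5.47 and 5.46, FOS at 5.74 and 5.84, FOSB at 6.06 and 6.10 and NR4A1 at 6.74 and 6.46, so the first 3 were within 0.25 and NR4A1 differed by 0.28. These were also named after their values were seen.

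The list of growth factor feedback genes also holds the EGF receptor ligands HBEGF and TGFA. Its members were above 0 on the deposited scale in all 23 kept genes of 28 with a probe set. DUSP8 (0.06) lay nearest to 0, and the 4 probe sets of TGFA ran from -0.35 to 0.23. Of these 23 genes 14 were at least 2-fold higher on the E. coli 83972 array and none on the DRB array, with a median of 1.45. After SOCS2 came the phosphatases that switch off MAP kinases, DUSP5 (10.14 and 6.00), DUSP1 (9.91 and 6.19) and DUSP10 (7.63 and 4.46).

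The ID and BMP list held genes far out on both sides. Of 17 kept, 6 were at least 2-fold higher on the E. coli 83972 array and 1, ID1, on the DRB array. CCN1, a matrix protein induced by growth factors and stretch, was at 9.56 and 6.30, BMP2, a ligand of the pathway that induces ID genes, at 6.73 and 4.09, and GDF15, a stress hormone of the TGF-β family, at 12.02 and 10.21. ID3, a relative of ID1 named after its values were seen, was at 8.57 and 8.08, so it lay on the other side from ID1.

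Regulators of the decay of short-lived messengers were mostly higher on the E. coli 83972 array. Of 15 kept genes that bind AU-rich elements or belong to the BTG and TOB family, 9 were at least 2-fold higher on the E. coli 83972 array and none on the DRB array, with a median of 1.28. BTG1, which recruits deadenylases, was at 10.23 and 7.02. ZFP36, the protein tristetraprolin that destabilises cytokine messengers, was at 9.86 and 6.75, its relative ZFP36L2 at 8.74 and 5.74, and ZC3H12C at 8.46 and 5.53. The general decay machinery was nearer to 0: of 47 kept deadenylation, decapping and exosome genes 9 were at least 2-fold higher on the E. coli 83972 array, with a median of 0.17. DCP1A (8.41 and 6.21), DCP2 (7.10 and 5.54) and EXOSC3 (7.95 and 6.32) were among them. CNOT4 differed by 2.22, but by -0.34 when it was read from plain probe sets alone. CNOT7, a deadenylase, was at 10.61 and 10.57.

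The machinery that DRB acts on was itself higher in part on the E. coli 83972 array. Of 21 kept genes of the P-TEFb list, which also holds the other kinases and the phosphatases of the polymerase tail, 8 were at least 2-fold higher on the E. coli 83972 array and none on the DRB array, against 12.2% and 0.389% of all kept genes, with a median of 0.45. CDK9, the kinase of P-TEFb and the target of DRB, stood at 8.0 on the E. coli 83972 array and 6.82 on the DRB array, a difference of 1.19. Its 3 probe sets gave 1.19, 1.28 and 0.07 (mean 0.85 ± 0.67, SD over probe sets). Of its cyclin partners, CCNT2 was at 6.00 and 4.20, under the filter level on the DRB array, and CCNT1 at 6.20 and 5.75.

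Members of the complex that holds P-TEFb inactive differed from each other. HEXIM1, the protein inhibitor of P-TEFb, was at 8.48 and 6.93, and all 5 of its probe sets were higher on the E. coli 83972 array, by 0.93 to 1.55 (mean 1.14 ± 0.25, SD over probe sets). MEPCE, which caps the 7SK RNA of that complex, was at 7.90 and 6.39. HEXIM2, the relative of HEXIM1, was at 5.96 and 5.86, and LARP7, which stabilises 7SK, at 8.60 and 8.87 over 5 probe sets that were all lower on the E. coli 83972 array under the deposited scale.

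Other kinases of the polymerase tail also parted. CDK7, the kinase of the initiation factor TFIIH, was at 9.14 and 7.75, while its partners CCNH (9.13 and 8.69) and MNAT1 (7.0 and 6.95) differed by 0.44 and 0.05. CDK8, the kinase of Mediator, was at 7.70 and 6.23 with a second probe set at 0.31, its relative CDK19 at 6.66 and 7.08, and their cyclin CCNC at 9.27 and 9.36. The elongation kinases CDK12 (0.43) and CDK13 (0.77) and their cyclin CCNK (0.06) stayed under 2-fold. Among the phosphatases, CTDSP2 was at 8.93 and 7.42 and RPAP2 at 7.12 and 5.87, while CTDP1 (0.78), CTDSP1 (0.23) and SSU72 (-0.53) were under 2-fold. The 5 probe sets of CTDSP2 ran from 0.52 to 1.51. RPAP2 turned to -0.11 when it was read from plain probe sets alone. With the poly-A controls set to 0, the differences of LARP7, CCNC and CDK19 were above 0, while SSU72 was at -0.01.

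**Figure D4:**
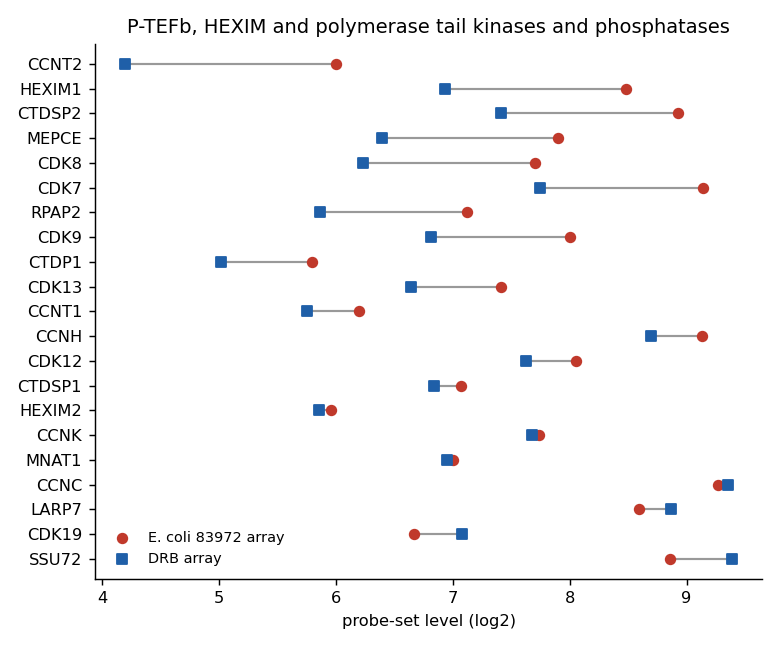
Log2 levels of the 21 kept genes of P-TEFb, its inhibitors and the kinases and phosphatases of the polymerase tail, with a red circle for the E. coli 83972 array and a blue square for the DRB array, ordered by difference. CCNT2 at the top differs by 1.81 and SSU72 at the bottom by -0.53 on the deposited scale.

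The subunits of polymerase II were all under 2-fold apart. Of the 12 genes 4 were within 0.25, against 41.4% of all kept genes, and 9 lay below 0. The median of -0.31 became 0.21 with the poly-A controls set to 0. POLR2D was at 7.65 and 6.75. POLR2G (9.12 and 9.54), POLR2F (10.34 and 10.73) and POLR2L (10.59 and 10.95) lay on the other side under the deposited scale, and above 0 under the poly-A scale.

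Factors that work with the polymerase were more spread. Of 27 kept general initiation factors 6 were at least 2-fold higher on the E. coli 83972 array and 1, GTF2H5, on the DRB array, with a median of 0.06 that turned to -0.12 with plain probe sets alone. TBPL1 (7.73 and 5.48), GTF2E1 (8.18 and 5.95), TAF4 (7.16 and 4.97) and TAF5 (6.74 and 4.56), subunits or relatives of TFIID and TFIIE, led them. Of 26 kept Mediator genes 7 were at least 2-fold higher on the E. coli 83972 array, with a median of 0.45. MED17 (7.72 and 4.96), MED13 (9.24 and 7.21), MED7 (7.02 and 5.45) and MED22 (6.82 and 5.27) differed most, and a second MED17 probe set differed by 0.35. Of 24 kept pausing, super elongation and PAF1 factors 3 were at least 2-fold higher, a share near the 12.2% of all kept genes. These were EAF1 (7.22 and 4.54), AFF4, the scaffold of the super elongation complex (10.20 and 8.40), and ELL2 (6.27 and 5.26). The median of 0.10 turned to -0.04 when both arrays had to reach the filter level. Of 16 SAGA genes 3 were at least 2-fold higher, ATXN7 (7.47 and 4.61), TADA1 (6.81 and 5.06) and TAF5L (6.97 and 5.84). Of 33 kept genes of polymerases I and III 9 were at least 2-fold higher, with TAF1A at 8.02 and 4.45, BDP1 at 8.29 and 6.09 and POLR3F at 7.46 and 5.33. None in the Mediator, pausing, SAGA and polymerase I and III lists was 2-fold higher with DRB, where only 0.389% of all kept genes were.

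Zinc finger transcription factors were mostly above 0 on the deposited scale, where 57.7% of all kept genes were below it. Of 455 genes named ZNF, 218 were kept, 59 of these were at least 2-fold higher on the E. coli 83972 array, against 12.2% of all kept genes, and none on the DRB array, and 162 were above 0, with a median of 0.40. ZNF217 was at 9.75 and 6.69 with a second probe set at -0.30, ZNF697 at 8.13 and 5.30, ZNF639 at 8.27 and 5.54 and ZNF232 at 7.66 and 5.06. Of 25 kept ZBTB factors 8 were at least 2-fold higher, with ZBTB21 at 7.66 and 4.98 and ZBTB11 at 8.66 and 6.75, and the median was 0.64.

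Lists built on gene structure had medians on opposite sides of 0 on the deposited scale. Of 28 kept genes without introns 15 were at least 2-fold higher on the E. coli 83972 array and 2, HSPA1A and HSPA1B, on the DRB array, with a median of 1.33. That median was 0.67 where both arrays had to reach the filter level. CEBPD, CEBPB, MARS2 (6.42 and 3.13) and EXOC8 (6.89 and 3.64) led them. Of these, CEBPD, MARS2 and EXOC8 were under the filter level on the DRB array. The list shares CEBPD, CEBPB and JUN, among others, with the immediate early factors, so the 2 lists are not separate observations. Of 28 kept very long genes 1 was 2-fold higher on each array. FNDC3B was at 10.57 and 8.74, with probe sets from -0.56 to 1.83, and CUX1 at 8.04 and 9.13. Of these long genes 22 lay below 0, with a median of -0.34 that became 0.18 with the poly-A controls set to 0. DPYD (6.26 and 7.03) and VPS13B (7.91 and 8.63) stood next to CUX1.

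Stress programmes did not go one way. In the list of the unfolded protein response and ATF4, 13 of 34 kept genes were at least 2-fold higher on the E. coli 83972 array and none on the DRB array. Beside PPP1R15B these were led by DNAJB9, a co-chaperone of the endoplasmic reticulum (8.24 and 4.49), CEBPG (9.09 and 5.51) and DDIT3, the pro-apoptotic factor CHOP (8.02 and 4.62). Their median of 0.55 turned to -0.08 when plain probe sets alone were used. The chaperones HSPA5 (11.80 and 11.65) and HSP90B1 (12.56 and 12.64), named after their values were seen, were close.

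Heat shock genes held members 2-fold apart on both sides. Of 28 kept, 3 were at least 2-fold higher on each array, with a median of -0.19 that became 0.33 with the poly-A controls set to 0. On the side of E. coli 83972 were the co-chaperones DNAJB4 (9.10 and 6.82) and DNAJB1 (8.35 and 6.94) and the heat shock protein gene HSPA13 (9.64 and 8.33). The 3 probe sets of DNAJB1 ran from 0.23 to 1.41 and the 4 of HSPA13 from -0.15 to 1.32. On the side of DRB, HSPA2 (4.62 and 5.69) joined HSPA1A and HSPA1B, and HSPA8, the constitutive chaperone, was at 11.82 and 12.56. HSPD1, the mitochondrial chaperonin, was at 12.26 and 12.25.

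The list of p53 targets, which also holds relatives of targets such as GADD45B and CCNG2, likewise had members on both sides. Of 30 kept, 11 were at least 2-fold higher on the E. coli 83972 array and 3 on the DRB array, which were TNFRSF10D, ZMAT3 and TP53INP1 (6.44 and 7.50). PMAIP1, the BH3 protein NOXA, was at 10.92 and 7.96, GADD45B at 8.53 and 6.04 and CCNG2 at 7.30 and 4.84, where GADD45B and CCNG2 each had a probe set below 0. MDM2, the ubiquitin ligase of p53 (8.06 and 6.27), and CDKN1A, the inhibitor p21 (10.70 and 9.80), were named after their values were seen. Of 21 kept BCL2 family and caspase regulators 6 were at least 2-fold higher on the E. coli 83972 array. MCL1, a short-lived survival protein, was at 9.94 and 6.80, with 5 probe sets from -0.24 to 4.24. BCL2L11, the protein BIM, was at 8.72 and 6.72, with 5 probe sets from -0.08 to 2.00. BAX (-0.17) and BCL2L1 (0.02) lay near 0.

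The hypoxia and antioxidant lists held genes 2-fold higher with E. coli 83972 and none 2-fold higher with DRB, where only 0.389% of all kept genes were. Of 27 kept HIF genes and targets, 3 were at least 2-fold higher on the E. coli 83972 array, a share near the 12.2% of all kept genes. They were KDM3A (8.36 and 5.79), PFKFB3 (9.61 and 7.25) and ADM (11.58 and 10.27), and a second PFKFB3 probe set differed by -0.14. CA12 (12.14 and 12.17) and LDHA (12.65 and 12.68) were close. Of 19 kept NRF2 genes 8 were within 0.25, a share near the 41.4% of all kept genes. At least 2-fold higher were 4, GCLC (8.86 and 7.27), NFE2L2 itself (12.04 and 10.46), OSGIN1 (6.74 and 5.34) and MAFG (9.20 and 8.01). The medians of 0.14 and 0.52 turned to -0.15 and -0.07 when plain probe sets alone were used.

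Among genes of the cell cycle, 12 of 46 kept replication and E2F genes were at least 2-fold higher on the E. coli 83972 array, against 12.2% of all kept genes, and 14 were within 0.25. The largest differences were those of E2F5 (8.86 and 5.65), CCNE2 (8.08 and 5.28), E2F6 (7.03 and 4.30) and E2F7 (9.16 and 6.79). A second E2F7 probe set differed by -0.37. PCNA, the replication clamp, was at 11.32 and 11.40 and TYMS at 11.37 and 11.52. Of 48 kept mitotic genes 7 were at least 2-fold higher, a share near the 12.2% of all kept genes, with the centromere histone CENPA at 9.31 and 6.21 and the kinase AURKA at 9.49 and 7.38, while CDK1 was at 10.69 and 10.25. Of 60 replication-dependent histone genes 12 were kept, none differed 2-fold, and 8 lay below 0. H2BC12 was at 9.37 and 10.36 and H2BC5 at 6.99 and 7.88, and the median of -0.47 became 0.05 with the poly-A controls set to 0. Most histone transcripts lack a poly-A tail, which the labelling needs.

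Several housekeeping lists held a large share of genes with a like level. Of 70 kept cytosolic ribosomal protein genes 64 were within 0.25 of each other, against 41.4% of all kept genes, and none differed 2-fold. RPL28 was at 12.93 and 12.99, RPS7 at 12.86 and 12.94 and RPS2 at 13.13 and 13.18. The median was -0.08, equal to that of all kept genes, and 0.44 with the poly-A controls set to 0. Among proteasome subunits 23 of 31 were within 0.25 and among glycolysis genes 11 of 17, with GAPDH at 12.74 and 12.78. Such probe sets lie near the top of the array's range, which ended at 13.20 on the E. coli 83972 array and 13.22 on the DRB array.

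Nuclear genes of oxidative phosphorylation lay slightly below 0 on the deposited scale. Of 72 kept 71 were below 0, against 57.7% of all kept genes, and none differed 2-fold, with a median of -0.29 that became 0.23 with the poly-A controls set to 0. NDUFA10 was at 6.68 and 7.51, NDUFB7 at 8.96 and 9.76, ATP5MC1 at 10.02 and 10.76 and NDUFA2 at 8.96 and 9.67. These genes encode subunits of complex I and of ATP synthase. Of 76 mitochondrial ribosomal protein genes 45 were within 0.25 and 2, MRPS30 (9.24 and 7.46) and MRPS31 (7.58 and 6.39), were at least 2-fold higher on the E. coli 83972 array.

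The remaining lists held between 2 and 5 genes that were 2-fold apart. In the synthetase, cholesterol, adhesion and splicing lists that share was under the 12.2% of all kept genes. Of 35 kept aminoacyl-tRNA synthetases 2, MARS2 and YARS2 (7.67 and 6.36), both mitochondrial enzymes, were at least 2-fold higher on the E. coli 83972 array, while GARS1 was at 12.03 and 11.36 and IARS1 at 11.61 and 11.58. Of 18 kept cholesterol synthesis genes 2 were, HMGCS1 (9.22 and 7.53) and INSIG1, the sterol sensor (11.26 and 9.61). Of 35 kept adhesion and matrix genes NEDD9 and the tight junction protein CLDN1 (11.75 and 9.54) were, while ITGB1, the common integrin chain, was at 12.70 and 12.73. Of 35 kept splicing regulators 3 were, RBM5 (7.19 and 5.60), RBM15 (9.29 and 7.84) and CLK1 (8.06 and 6.86), and HNRNPA1 was at 12.52 and 12.48. Of 16 kept clock genes 5 were, led by BHLHE41 (7.90 and 5.65) and NFIL3 (9.39 and 7.46), with a median of 0.77. That median was 0.21 at its lowest among the alternatives, and BHLHE40 (7.24 and 8.22) lay furthest on the other side. Of 9 kept host genes of small nucleolar RNAs 2 were at least 2-fold higher on the E. coli 83972 array, EPB41L4A-AS1 (8.29 and 6.80) and SNHG12 (9.33 and 7.86). No gene in these 6 lists was 2-fold higher on the DRB array, where only 0.389% of all kept genes were.

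**Figure D5:**
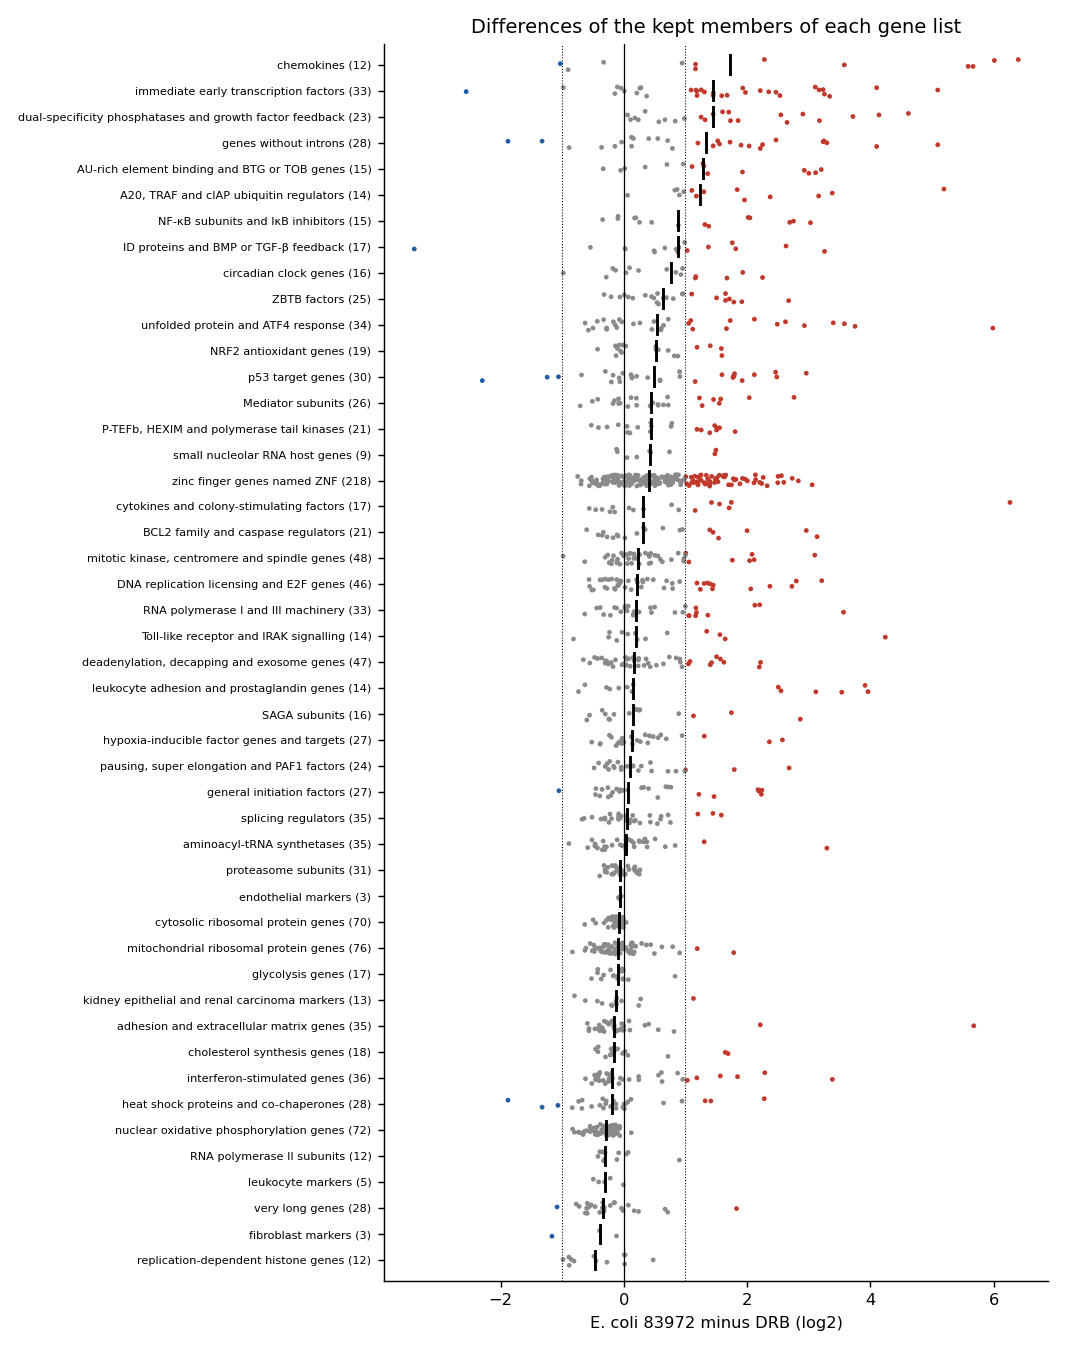
Each point is a kept gene of one of the 47 lists, placed by its log2 difference, E. coli 83972 minus DRB, on the deposited scale; the black bar is the list's median, the dotted lines mark 2-fold, red is higher with E. coli 83972 and blue higher with DRB, with the number of kept genes in parentheses. Chemokines at the top have a median of 1.72 and replication-dependent histone genes at the bottom one of -0.47.

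Some genes with several probe sets had a like level by every one of them. Of 3246 genes with at least 3 kept probe sets, 464 had every probe set within 0.25. The genes named here were picked for that likeness and for the highest levels, so they lie at the top of the array's range, and FTL is the highest value of both arrays. Among these 10, FTL, the light chain of ferritin, was at 13.20 and 13.22 with all 8 probe sets within 0.04 of equal. TPT1, a translationally controlled protein, was at 13.05 and 13.09, PABPC1, which binds poly-A tails, at 12.91 and 12.92, and SPP1, the secreted protein osteopontin, at 12.86 and 12.93 over 6 probe sets. B2M, the light chain of MHC class I, was at 12.86 and 12.83 over 8, TXN at 12.83 and 12.80 and MGST1 at 12.86 and 12.89.

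In other genes the probe sets disagreed. Of 6249 genes with at least 2 kept probe sets 139, or 2.22%, had probe sets at least 4-fold apart in their differences. In 2 genes probe sets differed 2-fold in opposite directions. CCNL1, a cyclin of splicing, had 3 probe sets between 1.49 and 1.84 and 1 at -1.10. FHIP2A had 1 at 1.09 and 1 at -1.48.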

How the data were processed

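The labels state RNA isolated on columns 4 h after treatment, amplified and biotin-labelled with a 3′ kit and hybridized to Affymetrix arrays. Per the submitters' processing notes, the deposited log2 values come from Partek and RMA. Their versions, any background correction and which arrays were normalized as 1 set are not stated in the sources at hand. Of 49386 probe sets, 45259 had 1 gene symbol, 1327 had several and 2800 were unlisted; 45178 had a current symbol in RefSeq's GRCh38.p14 table. The probe set whose mean over both arrays was highest stood for a gene, which was kept if either value reached 4.89. Differences are log2 values with E. coli 83972 minus those with DRB. Since each side has 1 array, no test was run and the control array was left out.

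Named are the 15 largest differences per direction among genes whose kept probe sets agree in direction, up to 4 per list plus up to 2 of the highest level where the median is within 0.25 of 0, the whole P-TEFb list, the 10 highest genes with 3 or more close probe sets, and genes with opposite probe sets. Any gene outside this rule was named after its values were seen. The genes and the 47 lists were chosen with earlier results of these data known. The calculation was tested on simulated data in which all probe sets of a gene shifted alike. That test checks the code and does not measure the error of these arrays. Tools were Python 3.11.15, numpy 2.4.6, pandas 2.3.3, scipy 1.17.1, statsmodels 0.14.6 and matplotlib 3.10.9. The alternatives are given in the closing section.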

Additional observations from a re-analysis of the deposited data

How the results depend on the processing

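The side on which most 2-fold genes lay was the same under all 9 alternatives, while the size of the smaller side was not. Reading plain probe sets alone, which leaves 3416 genes, gave 489 genes higher with E. coli 83972 and 17 higher with DRB. Quantile normalization gave 92 genes higher with DRB (93.3% of 2-fold genes on the side of E. coli 83972), and loess with a span of 0.3 gave 19 (98.9%). Centring on the poly-A controls gave 2506 and 7 genes (99.7%), on the hybridization controls 91 higher with DRB (93.2%), and on all spike-ins 2327 and 7 (99.7%). No filter, both arrays at the filter level, and the mean over probe sets stayed within 1.5 times of the main counts. FHIP2A turned to -0.20 with the mean over its probe sets, and with plain probe sets alone CNOT4 turned to -0.34 and RPAP2 to -0.11; the cause was not tested. Of 267 named genes 152 differed 2-fold, 149 of these kept their sign under every alternative and 120 stayed 2-fold wherever a value could be had. The count of kept signs was largely set in advance. Centring moves a difference by at most 0.52, so it could not turn the sign of a 2-fold gene. The 15 leading genes per direction had also been picked for probe sets that agree in direction. Of 47 list medians 25 turned sign under at least 1 alternative, 15 of them by a choice other than the zero point. No paired analysis was possible because there is 1 array a side. For dim genes, signal over background limits what can be told, since the 271 and 8 genes under the filter level on their lower array have no reliable level there.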

Other observations

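Some genes outside the lists also differed. Among the 45 genes higher on the DRB array, CASP1, the caspase that processes interleukin 1β, was at 5.58 with E. coli 83972 and 6.73 with DRB, and its 4 probe sets ran from -1.15 to -0.22. TXNIP, an inhibitor of glucose uptake, was at 6.45 and 7.48 over 5 probe sets from -1.03 to -0.51. ZC3HAV1, an antiviral RNA-binding protein, was at 9.31 and 10.73 over 4 probe sets from -2.09 to 0.02. With the poly-A controls set to 0, 7 genes remain 2-fold higher on the DRB array.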
